A study of Mus musculus with 20 samples.

Results

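The cells compared were mouse articular chondrocytes kept for 48 hours either with 20 µM 25-hydroxycholesterol-3-sulfate (25HC3S) or with 2 µM GW3965. Each treatment had 5 libraries, so the comparison used 10 of the 20 libraries of the series. The other 10 libraries came from cells given DMSO (Vehicle) or 20 µM 25-hydroxycholesterol (25HC) for the same time, and Vehicle values are given beside some genes as a description, with no test. Libraries were chosen by their labelled treatment alone, with no measured value used. The labels give the cells' source as articular cartilage cells of 6-week-old mice. They give neither the strain nor the number of animals, and do not say if replicates were separate mice or separate wells. The p-values therefore cover only library-to-library spread, part of which may be technical. Compound and dose differed together, so an effect of one cannot be told apart from an effect of the other.

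25HC3S is 25-hydroxycholesterol, an oxysterol, carrying a sulfate group at the 3 position of the sterol. GW3965 is a synthetic, non-steroidal agonist of the liver X receptors (LXRs), the nuclear receptors that oxysterols activate and that switch on genes for cholesterol export, phospholipid remodelling and fatty acid synthesis. A second sterol circuit runs through the SREBP transcription factors, which are held in the endoplasmic reticulum by SCAP and INSIG proteins when sterols are plentiful and are released to drive cholesterol synthesis and uptake when sterols are scarce. Cartilage cells make their matrix from type II collagen and aggrecan, and LXR activity and cholesterol handling are both studied in cartilage for their links to matrix turnover.

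Values are FPKM, fragment counts scaled for gene length and library depth, as the authors deposited them. Differences are 25HC3S minus GW3965 on the log2(FPKM + 1) scale, which understates changes of low genes, and are given with the standard error of the limma fit. A gene was called at a Benjamini-Hochberg adjusted p under 0.05 over the 12151 genes that reached 1 FPKM in at least 5 of the 10 libraries. Defining chondrocyte genes were present in both groups. Col2a1 (type II collagen) was at 1509 to 3223 FPKM, Acan (aggrecan) at 57.8 to 75.3 and Sox9 (the chondrocyte transcription factor) at 20.2 to 24.6. RNA of macrophages was detected as well. Cd68, a macrophage marker, ranged from 41.4 to 80.9 FPKM.

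One library stood apart before any comparison was made. The 10 libraries held 16349340 to 19365220 fragments in genes. 25HC3S replicate 1 had 1171 genes with exactly 1 fragment, against 1842 to 2057 in the other 9 libraries, and 19648 detected genes against 20847 to 21607. Its mitochondrial share was 3.14% of fragments, against 1.13 to 1.41% in the others. It lay outside the range of the other 9 libraries for 8511 genes (70% of those tested), and the next highest number was 2252 for 25HC3S replicate 4. With it, the median SD of a gene within the 25HC3S group was 0.169 on the log2 scale. Without it that SD was 0.0796, close to the 0.0812 of the GW3965 group. Results are therefore given both with and without it. Among the 5 Vehicle libraries, 3 had few genes at 1 fragment too (237, 316 and 915).

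**Figure D1:**
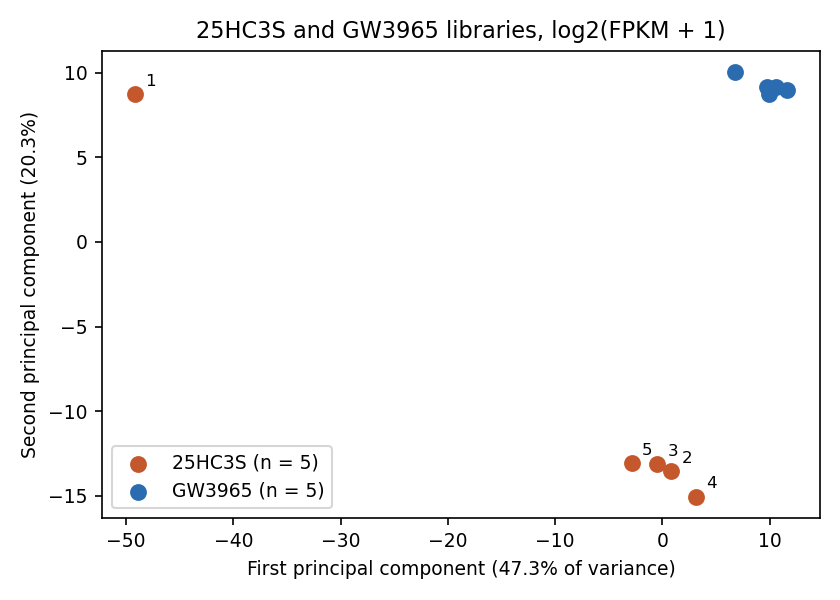
Principal components of log2(FPKM + 1) over the 12151 tested genes for all 10 libraries, each axis labelled with its share of the variance and each point 1 library. The first component (47.3%) separates 25HC3S replicate 1 from the rest. The second (20.3%) separates 25HC3S replicates 2 to 5 from GW3965, with 25HC3S replicate 1 on the GW3965 side. Without that library, which is not drawn, the first component (40.3%) separates the treatments.

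With all 10 libraries, 1002 of the 12151 tested genes differed (8.25%). Of these, 564 were lower with 25HC3S than with GW3965 (4.64%) and 438 were higher (3.6%). By at least 2-fold, 54 genes were lower (0.444%) and 9 higher (0.0741%), and with a pseudocount of 0.1 in place of 1 these counts were 86 and 44. Without 25HC3S replicate 1 the calls were 1074 lower (8.84%) and 975 higher (8.02%), and they held every one of the 564 and the 438. The 2-fold calls were then 52 lower (0.428%) and 6 higher (0.0494%). The 5 and 5 libraries did not overlap for 793 genes on the lower side (6.53% of tested genes) and 723 on the higher side (5.95%). Among called genes that held for 526 lower and 400 higher ones. List counts below are to be read beside 4.64% lower and 3.6% higher with all 10 libraries. Without 25HC3S replicate 1 they are to be read beside 8.84% and 8.02%.

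Most differences were small. The median difference over all tested genes was -0.0011, the 5th and 95th percentiles were -0.36 and 0.31, and the median size among called genes was 0.45. The split between directions moved with scaling. After libraries were rescaled to equal totals, 426 genes were lower and 559 higher, so that 56.8% of calls were higher in place of 43.7%, although that rescaling moved the median gene only to 0.0195. Protein-coding genes made up 97.2% of the lower and 96.6% of the higher calls, against 90.8% of tested genes. The called lower genes had a median of mean FPKM of 8.64, the higher ones 3.94 and all tested genes 6.35.

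**Figure D2:**
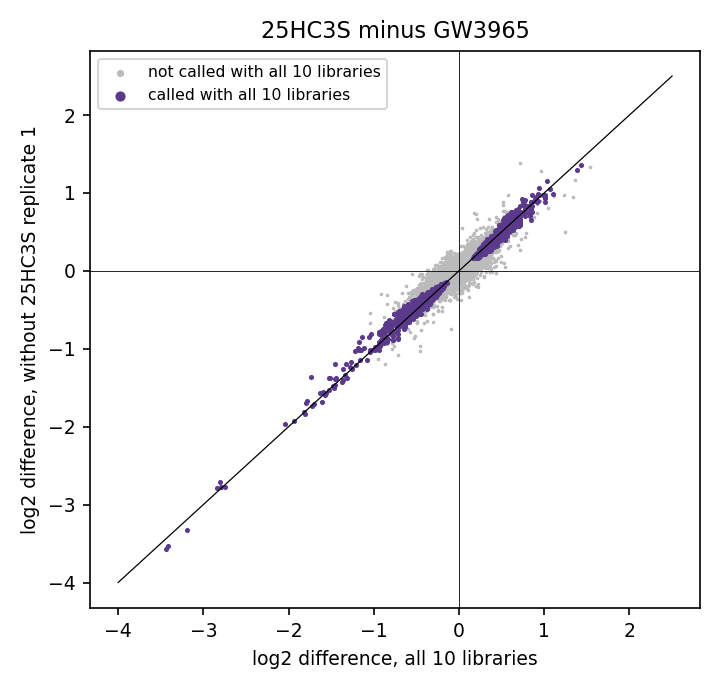
Log2 difference with all 10 libraries (horizontal) against the difference without 25HC3S replicate 1 (vertical), 1 point for each tested gene, with the diagonal for equality. Scd1 and Abca1 lie at the lower left, Apoe (-1.74 against -1.36) lies off the diagonal, and no called gene changes direction.

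Genes of cholesterol export and other LXR targets were among those with the largest differences. Of 18 listed LXR targets 15 were tested, and 10 were lower with 25HC3S, beside 4.64% of all tested genes, and 0 higher. The list's median difference was -0.71 (-0.68 without 25HC3S replicate 1), beside -0.0011 over all tested genes. With all 20 libraries in the fit the count of lower genes was 6. That fit shares the spread of a gene over all groups, including the Vehicle libraries with few genes at 1 fragment.

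Abca1, which exports cholesterol and phospholipid to apolipoprotein A-I (chromosome 4, 53030787 to 53159895, minus strand, in the deposited table), was at 13.1, 9.42, 8.81, 7.91 and 8.55 FPKM in 25HC3S replicates 1 to 5. In GW3965 replicates 1 to 5 it was at 108, 113, 110, 113 and 110 FPKM. The groups were far from overlapping, and Vehicle libraries lay at 8.53 to 14 FPKM, among the 25HC3S values. The log2 difference was -3.42 (SE 0.11, limma, adjusted p = 9.3e-09). Abcg1, which exports cholesterol to high-density lipoprotein, was at 4.75, 2.6, 3.26, 2.31 and 2.42 FPKM with 25HC3S and at 34.7, 36.6, 37.3, 33.2 and 35.3 with GW3965, a log2 difference of -3.19 (SE 0.13, limma, adjusted p = 8.8e-08). For both exporters 25HC3S replicate 1 was the highest of its group. Even that library lay far below the lowest GW3965 library. Vehicle was at 1.36 to 2.48 FPKM for Abcg1, with 25HC3S replicates 1 to 3 above that range.

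Srebf1, the gene of the SREBP-1 factors of fatty acid synthesis and a direct LXR target (chromosome 11, 60199089 to 60222581, minus strand), was at 18.4, 21.8, 22.4, 22.1 and 22.1 FPKM with 25HC3S. With GW3965 it was at 169, 166, 159, 157 and 143 FPKM. The log2 difference was -2.84 (SE 0.07, limma, adjusted p = 1.3e-09), and Vehicle ranged from 15 to 25.1 FPKM. Apoe, which carries lipid out of cells, differed by -1.74, from 33.8 FPKM on average with 25HC3S to 104 with GW3965 (limma, adjusted p = 0.0067), and by -1.36 without 25HC3S replicate 1. Lpcat3, which puts polyunsaturated chains into phospholipids, differed by -1.48. Mylip, a ubiquitin ligase that LXRs induce, differed by -1.34. Lpl (lipoprotein lipase) had a difference of -0.71, or -0.86 without 25HC3S replicate 1, whose 62.9 FPKM fell inside the GW3965 range of 60 to 74.9. The calls of Apoe (limma, adjusted p = 0.13) and Lpl (0.17) were lost in the fit of all 20 libraries.

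Not every listed LXR gene differed. Rnf145, another LXR-responsive ubiquitin ligase, was at 13.2 to 14.8 FPKM with 25HC3S and 14 to 15.9 with GW3965, and both ranges lay above the 8.26 to 9.49 FPKM of Vehicle. Its difference was -0.08 (95% interval -0.19 to 0.03, limma, adjusted p = 0.41). The receptors themselves did not pass the test. Nr1h2 (LXR-beta) had a difference of -0.10 (95% interval -0.28 to 0.07) and Nr1h3 (LXR-alpha) one of -0.22 (-0.36 to -0.07, limma, adjusted p = 0.07). Without 25HC3S replicate 3, Nr1h3 passed at an adjusted p of 0.043 (limma). Abca2 and Abca7 had differences of 0.05 and -0.05.

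LXRs bind DR4 elements, pairs of half-sites spaced by a short gap. The 250 bases before the start of each gene in a RefSeq promoter table (build GRCm38.p6) were searched on both strands for 2 copies of GGTNA with 5 bases between them, a match that occurs in 0.621% of its 32851 promoters. Of 21 promoters of 13 matched genes on the LXR list, 2 held it (9.52%). It was not particular to that list. The list of fatty acid desaturases and elongases had it in 2 of 12 promoters (16.7%). De novo fatty acid synthesis had it in 1 of 13 (7.69%), and the mevalonate, squalene, replication and mitosis lists in 0. These 2 promoters, of Abca1 (chr4:53159896-53160145, minus strand) and Srebf1 (chr11:60210472-60210721, minus strand), are shown with the match in capitals. The match lay 67 to 53 bases before the listed start in Abca1 and 182 to 168 in Srebf1. The Srebf1 promoter shown lies inside the gene span given above, and the other promoters listed for Srebf1 held no match. Both matches read on the opposite strand.
Abca1: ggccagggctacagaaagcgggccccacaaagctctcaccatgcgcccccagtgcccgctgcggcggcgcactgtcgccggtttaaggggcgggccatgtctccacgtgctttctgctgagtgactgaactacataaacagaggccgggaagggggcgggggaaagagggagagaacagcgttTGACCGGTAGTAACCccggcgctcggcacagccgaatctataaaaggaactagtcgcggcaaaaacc
Srebf1: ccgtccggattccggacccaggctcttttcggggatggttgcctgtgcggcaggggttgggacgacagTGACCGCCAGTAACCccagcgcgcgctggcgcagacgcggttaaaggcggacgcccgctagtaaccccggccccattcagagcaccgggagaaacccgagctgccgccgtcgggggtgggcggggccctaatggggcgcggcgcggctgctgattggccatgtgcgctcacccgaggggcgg
A match describes the letters only. Binding was not measured.

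Genes of cholesterol synthesis were lower with 25HC3S at nearly every step of the pathway. In the mevalonate arm, which makes the isoprenoid units, 7 of 8 tested genes were lower and 0 higher, with a median of -1.25. In the arm from squalene to cholesterol 12 of 13 tested genes were lower and 0 higher, with a median of -1.45. The members that were not called were Ggps1 (0.09), which makes geranylgeranyl diphosphate on a side branch, and Lbr (0.03), a sterol reductase that is also a protein of the nuclear envelope. Both counts were the same without 25HC3S replicate 1.

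Hmgcs1, the HMG-CoA synthase (chromosome 13, 119690379 to 119708260, plus strand), was at 8.01, 7.28, 7.74, 8.13 and 8.18 FPKM with 25HC3S and at 23.9, 23.4, 25.3, 25.7 and 27.7 with GW3965. The difference was -1.56 (SE 0.06, limma, adjusted p = 2.6e-08). Vehicle libraries lay between the groups, at 12.4 to 20.4 FPKM. Further along the arm the differences were -1.78 for Mvd, -1.47 for Idi1 and -0.94 for Mvk.

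Sqle, the epoxidase that commits squalene to sterols, was at 6.02, 6.27, 7.24, 6.98 and 6.93 FPKM with 25HC3S. It was at 21.8, 22.3, 23, 21.2 and 22 FPKM with GW3965, a difference of -1.59 (SE 0.06, limma, adjusted p = 2.3e-08). Cyp51, the lanosterol demethylase, had the largest difference of this arm, -1.82 (SE 0.06), from 8.01 to 9.74 FPKM up to 31.9 to 36. Msmo1 (-1.73) and Nsdhl (-1.70), which remove the methyl groups at carbon 4, followed. Fdft1 differed by -1.57 and Lss by -1.45. The smallest called difference was that of Ebp, the sterol isomerase, at -0.47 (limma, adjusted p = 0.019). It was lost without GW3965 replicate 1 (0.052) or replicate 4 (0.056) and after rescaling to equal totals (0.056).

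SREBP factors read the sterol regulatory element. The letters TCACNCCAC occur on either strand in 1.05% of all promoters of the RefSeq table, in 1 of 8 promoters of the mevalonate list and in 0 of 12 of the squalene list, which says only that these letters are absent from those windows. The CCAAT box, where the partner factor NF-Y binds, occurs in 6 of 8 and 10 of 12, against 33.8% of all promoters. The promoter of Hmgcs1 (chr13:119690101-119690350, plus strand) is shown as the one match, with its element, 137 to 129 bases before the start, in capitals.
Hmgcs1: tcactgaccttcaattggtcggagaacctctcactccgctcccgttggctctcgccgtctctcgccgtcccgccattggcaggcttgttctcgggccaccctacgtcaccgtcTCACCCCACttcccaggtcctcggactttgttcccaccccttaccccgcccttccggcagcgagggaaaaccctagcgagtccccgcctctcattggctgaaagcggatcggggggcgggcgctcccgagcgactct

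Of 10 genes of the SREBP factors and their control in the endoplasmic reticulum, 2 were lower and 0 higher. Insig1, which anchors the SCAP and SREBP complex in the endoplasmic reticulum and is also a classic SREBP target (chromosome 5, 28071363 to 28078662, plus strand), was at 6.02, 7.18, 8.73, 9.52 and 9.16 FPKM with 25HC3S. It was at 61.2, 56.4, 66.1, 63.2 and 61.7 with GW3965. The difference was -2.80 (SE 0.11, limma, adjusted p = 3.7e-08). Vehicle lay apart from both, at 14.3 to 20.5 FPKM. Srebf2, the master factor of cholesterol synthesis, was at 16.4, 15, 17.6, 17.5 and 17.5 FPKM against 34.2, 33.4, 35.4, 33.7 and 34.3, a difference of -0.99 (SE 0.05, limma, adjusted p = 7.0e-07). The remaining 8 genes of the list, among them Scap (-0.02), Insig2 (-0.16) and the protease gene Mbtps1 (0.13), were not called. Without 25HC3S replicate 1, Insig2 was called lower (-0.14) and Mbtps1 (0.13) and Erlin1 (0.14) higher. The list's median was -0.004.

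Genes of sterol uptake followed the same direction in part. Of 11 tested, 6 were lower and 0 higher, with a median of -0.51 (8 lower and -0.41 without 25HC3S replicate 1). Stard4, a cytosolic sterol carrier, was at 4.64, 4.11, 4.39, 4.07 and 4.19 FPKM with 25HC3S and at 8.21, 7.77, 8.95, 8.68 and 9.15 with GW3965. Those ranges did not overlap, and the difference was -0.85 (SE 0.06, limma, adjusted p = 4.9e-06). Scarb1, the receptor of high-density lipoprotein, differed by -0.69. Npc1, which moves cholesterol out of lysosomes (-0.05), the acid lipase gene Lipa (0.0038) and Vldlr (-0.03) were not called, though Vldlr was without 25HC3S replicate 1 (-0.11).

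Fatty acid synthesis and desaturation were lower with 25HC3S as well. All 7 tested genes of de novo synthesis were lower, with a median of -0.89, and 9 of 12 tested desaturase, elongase and acyl-CoA ligase genes were, with a median of -0.77. Without 25HC3S replicate 1 the counts were 7 and 10. The 4 further genes of the synthesis list, Acacb, Thrsp, Pnpla3 and Mlxipl, never passed 1.21 FPKM in any library and were not tested.

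Scd1, the stearoyl-CoA desaturase that makes oleate (chromosome 19, 44394451 to 44407709, minus strand), was at 55.2, 33.7, 36.9, 31.6 and 36.4 FPKM with 25HC3S. With GW3965 it was at 412, 423, 429, 426 and 417. The difference was -3.44 (SE 0.12, limma, adjusted p = 2.6e-08), and -3.57 without 25HC3S replicate 1, which was the highest of its group. Vehicle lay between the groups, at 55.3 to 106 FPKM for Scd1. Scd2, its neighbour and close relative on chromosome 19, went from 70.9 to 87.9 FPKM with 25HC3S up to 527 to 565 with GW3965, a difference of -2.75 (SE 0.06). The pair are paralogues, and how fragments that match more than 1 gene were counted is not given in the sources used here. Fads2, the delta-6 desaturase of polyunsaturated fatty acids, was at 17, 15.1, 19.3, 19.3 and 20.7 FPKM against 138, 128, 140, 123 and 132, a difference of -2.79 (SE 0.08, limma, adjusted p = 8.3e-09). Vehicle, at 20.3 to 34.3 FPKM for Fads2, overlapped only 25HC3S replicate 5. Fads1 differed by -1.36 and Fads3, a neighbour in that cluster, by -0.17 with no call (limma, adjusted p = 0.07), though it was called without 25HC3S replicate 1 (0.022).

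Acsl3, which loads fatty acids with coenzyme A on lipid droplets, was at 3.7 to 4.57 FPKM with 25HC3S and 16.5 to 18.2 with GW3965, a difference of -1.81. Acsl4 differed by -0.77 and Acsl1 by 0.09 with no call. Fasn, the fatty acid synthase, was at 29.3, 22.5, 23.5, 22.2 and 23.4 FPKM against 75.2, 78.6, 78.3, 76.6 and 70.1. That was a difference of -1.61 (SE 0.07, limma, adjusted p = 2.2e-07), with Vehicle at 20.5 to 28.7 FPKM, overlapping the 25HC3S libraries. Mid1ip1, which activates acetyl-CoA carboxylase, differed by -1.51, Acly, which makes cytosolic acetyl-CoA, by -0.93, and Acaca, the carboxylase, by -0.71. The elongases Elovl5 and Elovl6 differed by -0.77 and -0.71.

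Among PPAR targets and lipid droplet genes, 7 of 16 tested were lower and 0 higher, with a median of -0.30. Fabp5, a fatty acid binding protein, was at 5.52, 9.26, 9.29, 10.3 and 9.31 FPKM with 25HC3S and at 23.8, 22.5, 24.4, 21.7 and 23 with GW3965, a difference of -1.33 (SE 0.13, limma, adjusted p = 8.5e-05). Plin2, which coats lipid droplets, was at 14.5 to 18.4 FPKM against 28.9 to 32, a difference of -0.89 (SE 0.07). Cpt1a, which admits fatty acids into mitochondria, differed by -0.49. Pdk4, another PPAR target, had a difference of -0.37 and was not called (limma, adjusted p = 0.057), though it passed without GW3965 replicate 2 (0.032) or 25HC3S replicate 5 (0.049). Pparg (0.10), Dgat1 (0.03) and Dgat2 (-0.02) were not called either.

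The genes that make or sense oxysterols differed little. Of 11 tested, 1 was lower and 0 were higher. That gene was Gpr183, a receptor for dihydroxylated oxysterols on immune cells, at 0.903 to 1.53 FPKM with 25HC3S and 1.56 to 2.64 with GW3965, a difference of -0.57 (SE 0.12, limma, adjusted p = 0.013). Ch25h, the enzyme that makes 25HC, was at 3.42 to 8.23 FPKM against 4.35 to 5.68, with overlapping groups and a difference of 0.11 (95% interval -0.25 to 0.47). Without 25HC3S replicate 4 it was -0.01. Cyp7b1, which hydroxylates oxysterols onward, had a difference of 0.38 (limma, adjusted p = 0.069), and it passed when GW3965 replicate 3 was left out (limma, adjusted p = 0.027). After rescaling to equal totals, 2 genes of the list were higher. Sult2b1, the sulfotransferase that makes 25HC3S, did not exceed 0.148 FPKM in any library and was not tested.

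On the other side, genes of the dividing cell were higher with 25HC3S than with GW3965. Of 26 tested genes of DNA replication and nucleotide synthesis, 19 were higher, beside 3.6% of all tested genes, and 0 lower, with a median of 0.55. Of 28 tested genes of mitosis and chromosome segregation, 25 were higher and 0 lower, with a median of 0.72. Without 25HC3S replicate 1 the counts were 24 of 26 and 28 of 28, and the medians were 0.59 and 0.75. Every tested member of both lists had a difference above 0 with all 10 libraries. A filter of at least 5 FPKM, which tested fewer genes, called 10 and 13 of them.

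Top2a, the topoisomerase that untangles replicated DNA (chromosome 11, 98992943 to 99024189, minus strand), was at 27, 18.2, 20.3, 20.8 and 20.6 FPKM with 25HC3S. It was at 8.77, 9.28, 10.4, 10.5 and 11.3 with GW3965, a difference of 1.01 (SE 0.10, limma, adjusted p = 1.0e-04). The groups did not overlap, and Vehicle, at 16.1 to 32.1 FPKM, lay on the side of 25HC3S. Ncapg2, a subunit of a condensin, was at 8.85, 6.28, 6.89, 6.78 and 6.52 FPKM against 2.55, 2.95, 3.12, 3.2 and 3.19, also a difference of 1.01 (SE 0.09, limma, adjusted p = 3.6e-05). In both genes 25HC3S replicate 1 was the highest library, and the differences without it were 0.93. Mki67, the proliferation marker, was at 36.3 FPKM in 25HC3S replicate 1 and at 15.6, 19.4, 17.4 and 19.6 in replicates 2 to 5, against 10, 10.8, 11.3, 11.1 and 12.2 with GW3965. The difference was 0.85 (SE 0.18, limma, adjusted p = 0.014) with that library and 0.65 (SE 0.07) without it. With all 20 libraries in the fit its adjusted p was 0.084 (limma).

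Other mitotic genes lay close together. Anln, a scaffold of the cleavage furrow, was at 8.18 to 10.4 FPKM against 4.1 to 5.1, a difference of 0.92. Prc1 (0.88), Kif11 (0.82), Ccna2 (0.82) and Tpx2 (0.79) build or regulate the spindle and the cycle. Pbk (0.94), Melk (0.93), Ckap2l (0.94) and Ckap2 (0.90), which were among the largest named differences on this side, are kinases and spindle proteins of dividing cells. Ccnb2 (0.36), Plk1 (0.56) and Aurka (0.37) were not called with all 10 libraries and were called without 25HC3S replicate 1.

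In DNA replication, Rrm2, the ribonucleotide reductase subunit that limits deoxynucleotide supply, was at 34.9, 51.9, 60.5, 61.2 and 56.6 FPKM with 25HC3S. It was at 30, 29.6, 30, 31.9 and 29.4 with GW3965, a difference of 0.77 (SE 0.13, limma, adjusted p = 0.0038). Here 25HC3S replicate 1 was the lowest of its group, and the difference without it was 0.91. Mcm5, part of the replicative helicase (chromosome 8, 75109569 to 75128439, plus strand), was at 18.6, 21.4, 21.7, 22.2 and 19.8 FPKM against 12.2, 11.7, 13.9, 13 and 10.4, a difference of 0.72 (SE 0.08, limma, adjusted p = 1.8e-04). The other tested helicase subunits, Mcm2, Mcm3, Mcm4, Mcm6 and Mcm7, differed by 0.52 to 0.59. Pcna, the polymerase clamp, had a difference of 0.17 and was not called, though it was without 25HC3S replicate 1 (0.29, limma, adjusted p = 0.012). Tcf19, a cell cycle gene that was on no list, had the largest named difference on this side, 1.03 (SE 0.13), from 7.81 to 9.41 FPKM with GW3965 up to 13.1 to 22.5 with 25HC3S. Slfn9, a gene with close relatives nearby, differed by 1.01, or 0.88 without 25HC3S replicate 1.

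E2F factors drive genes of DNA replication. The letters TTTNNCGC occur on either strand in 4.28% of all promoters of the RefSeq table, in 8 of 28 promoters of 22 matched genes of the replication list (28.6%) and in 2 of 26 of the mitosis list (7.69%). The LXR list, with no higher gene, had them in 4 of 21 promoters (19%). By gene that was 4 of 13 on the LXR list and 7 of 22 on the replication list. The de novo synthesis list had 1 of 13 promoters, and the mevalonate, squalene and desaturase lists 0. The CCAAT box occurs in 22 of those 26 mitosis promoters (84.6%), against 33.8% of all. The promoter of Mcm5 (chr8:75109259-75109508, plus strand) is shown as one of the replication promoters with the match. It holds a pair of overlapping E2F matches on opposite strands, 153 to 142 bases before the start, in capitals.
Mcm5: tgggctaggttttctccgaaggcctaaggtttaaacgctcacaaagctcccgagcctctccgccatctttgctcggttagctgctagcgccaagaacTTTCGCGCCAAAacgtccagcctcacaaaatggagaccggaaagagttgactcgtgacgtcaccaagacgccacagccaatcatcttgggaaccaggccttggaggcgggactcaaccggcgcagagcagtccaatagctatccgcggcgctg

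**Figure D3:**
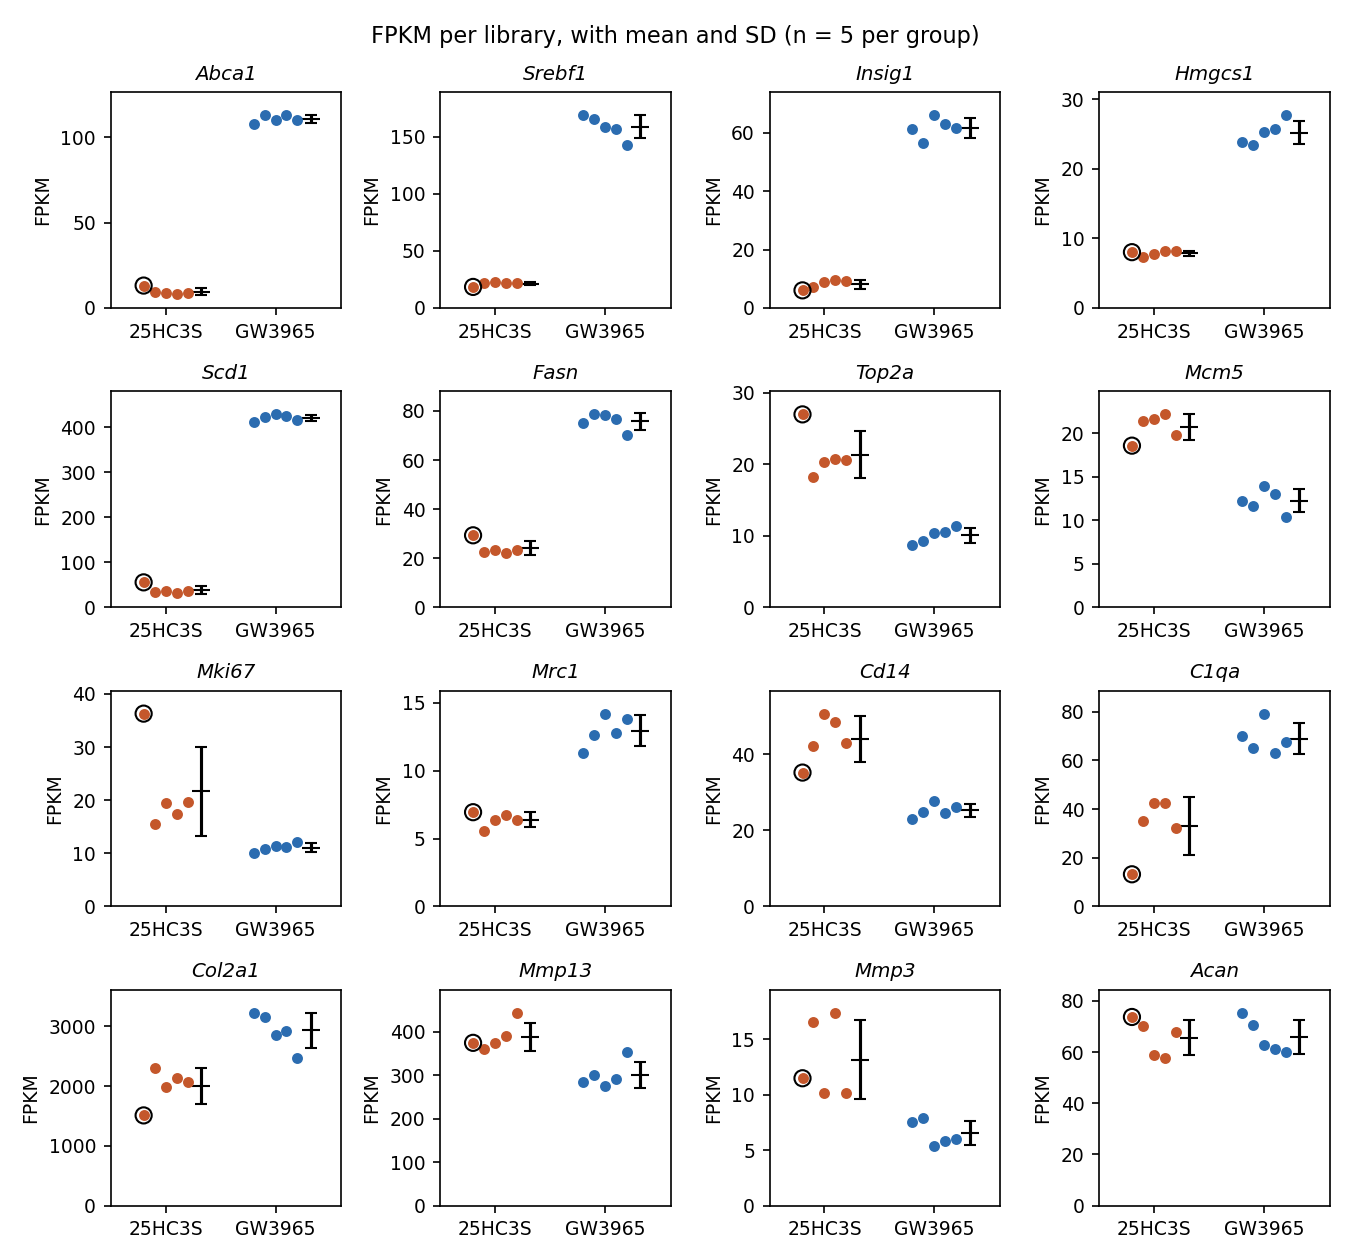
FPKM in each library of 25HC3S and GW3965 for named genes, each on its own axis from 0, with a short line at the group mean and an error bar of 1 SD over 5 libraries. The circled point is 25HC3S replicate 1. Abca1, Scd1 and Insig1 show wide gaps between groups, Top2a and Mki67 lie higher with 25HC3S, and the groups overlap for Acan.

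Macrophage genes were measured in every library and differed between the treatments. Of 17 tested general macrophage and complement C1q genes, 11 were lower with 25HC3S and 0 higher, with a median of -0.61 (12 lower and -0.47 without 25HC3S replicate 1). The summed level of the list was 655 to 1130 FPKM with 25HC3S and 1318 to 1487 with GW3965. The 655 was that of 25HC3S replicate 1, and the median of its group was 1025. In Vehicle libraries the sum was 646 to 1404. In bulk RNA, fewer cells of a type and less RNA per cell cannot be told apart. The part of macrophage number in any other difference was not tested.

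Cd68, a macrophage lysosomal protein, was at 42.5, 44.9, 49.8, 50.2 and 41.4 FPKM with 25HC3S and 75.8, 72.9, 80.9, 58.2 and 75 with GW3965, a difference of -0.65 (SE 0.09, limma, adjusted p = 9.9e-04). Mpeg1, a pore-forming protein of macrophages, differed by -0.94. C1qb, a chain of complement C1q, was at 34.8, 72.6, 80, 87.3 and 66.6 FPKM against 127, 134, 152, 122 and 136, a difference of -1.03 (SE 0.21, limma, adjusted p = 0.0097) that was -0.81 without 25HC3S replicate 1. Csf1r, the receptor macrophages need to survive, had the smallest called difference of the list, -0.27. It lost its call without 25HC3S replicate 2 or 5 or GW3965 replicate 2, 3 or 5 (limma, adjusted p 0.053 to 0.069). Ptprc (0.08), Itgam (-0.14), Spi1 (-0.39) and Tyrobp (-0.41) were not called. The list's count was 7 without GW3965 replicate 5 and 4 with all 20 libraries in the fit, where Cd68 was no longer called (limma, adjusted p = 0.36). Vehicle, whose spread enters that fit, ran from 16.2 to 81.4 FPKM for Cd68.

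Genes listed for resident-type macrophages, scavenger receptors among them, differed more widely. Of 11 tested, 7 were lower and 1 was higher, with a median of -0.51. Cbr2, a carbonyl reductase of tissue-resident macrophages, was at 10.7, 15.3, 15.9, 14 and 18 FPKM with 25HC3S. It was at 48.7, 49.3, 54.7, 56.2 and 58.7 with GW3965, a difference of -1.80 (SE 0.12, limma, adjusted p = 3.9e-06). Mrc1, the mannose receptor, was at 6.94, 5.56, 6.4, 6.71 and 6.39 FPKM against 11.3, 12.6, 14.2, 12.8 and 13.8, a difference of -0.91 (SE 0.07, limma, adjusted p = 2.0e-05). Vehicle lay at 19.2 to 32.1 FPKM for Mrc1, above both groups. Fcrls, a scavenger receptor-like protein, was at 9.11 to 12.9 FPKM against 24.2 to 29.8, a difference of -1.25, with Vehicle at 29.6 to 47.3. Stab1, which clears modified lipoproteins, differed by -0.99. Cx3cr1 was the higher one (0.37, limma, adjusted p = 0.038), a call that was lost when any library other than 25HC3S replicates 1 and 5 was left out (0.053 to 0.1).

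Genes of activated myeloid cells went both ways. Of 14 tested, 6 were higher with 25HC3S and 3 lower, with a median of 0.20. Cd14, the lipopolysaccharide co-receptor, was at 35.2, 42.1, 50.7, 48.5 and 43.1 FPKM with 25HC3S and 23.1, 24.8, 27.7, 24.5 and 26.2 with GW3965, a difference of 0.77 (SE 0.09, limma, adjusted p = 3.8e-04). The groups did not overlap, and the Vehicle range of 22 to 28.7 FPKM lay on the side of GW3965. Mmp12, the macrophage elastase, was at 3.89 to 4.85 FPKM against 1.81 to 2.18, a difference of 0.84 (SE 0.07). The C-type lectins Clec5a (0.67) and Clec4e (0.63) and Trem1 (0.62) were higher at levels under 4 FPKM on average. The lower members were Msr1 (-0.84) and Cd36 (-0.65), which take up modified lipoproteins, and Gpnmb (-0.38).

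Inflammatory genes outside those lists had a median of 0.25, with 4 of 18 tested higher and 0 lower, and 8 higher without 25HC3S replicate 1. Leaving out 25HC3S replicate 5, GW3965 replicate 4 or GW3965 replicate 5 left 2. Nfkbia, the inhibitor that NF-kappaB induces, was at 15.5, 14.2, 18.3, 21 and 14.8 FPKM with 25HC3S and at 9.57, 11.3, 11.8, 10.7 and 12.4 with GW3965, a difference of 0.54 (SE 0.11, limma, adjusted p = 0.0086). Cytokine genes Il6, Il1b, Il1a, Cxcl1 and Cxcl2 were too low to be tested. Among 22 tested interferon-stimulated genes, 2 were higher and 2 lower, with a median of 0.09 (2 and 3 without 25HC3S replicate 1). When 1 of the other 9 libraries was left out, 1 to 2 were higher and 0 to 3 lower, and the fit of all 20 libraries gave 2 and 0. Gbp2, an interferon-induced GTPase (0.55), lost its call in 13 of 20 alternatives and Ifi27l2a (-0.82) in 9. Cxcl10, a chemokine induced by interferon, was at 2.42, 1.24, 1.86, 2.23 and 2.53 FPKM against 0.56, 0.429, 0.407, 0.35 and 0.755, a difference of 1.01 (SE 0.13, limma, adjusted p = 5.2e-04). Ifit1, a standard member of that response with close relatives, overlapped between groups and had a difference of 0.34 (95% interval -0.18 to 0.87).

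Cartilage matrix genes were mostly not called. Of 27 tested, 2 were lower and 0 higher, beside 4.64% and 3.6% of all tested genes. The median was -0.10 (6 lower, 1 higher and -0.05 without 25HC3S replicate 1). Col2a1, type II collagen, was at 1509, 2304, 1985, 2138 and 2069 FPKM with 25HC3S and at 3223, 3159, 2857, 2927 and 2477 with GW3965. The groups did not overlap, but Vehicle ran from 1059 to 3501 FPKM across both. The difference was -0.56 (SE 0.11, limma, adjusted p = 0.011), and the call was lost with all 20 libraries in the fit (adjusted p = 0.27) and with no filter on low values (0.23). Col11a2, a chain of the type XI collagen that copolymerises with it, was at 30.6, 59, 45.7, 52.4 and 53.7 FPKM against 98.8, 96.5, 86.5, 89.8 and 81.3. Its difference was -0.92 (SE 0.15, limma, adjusted p = 0.0026), -0.77 without 25HC3S replicate 1, with an adjusted p of 0.14 in the fit of all 20 libraries.

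Acan was at 73.7, 70.2, 58.9, 57.8 and 67.8 FPKM with 25HC3S and at 75.3, 70.7, 62.7, 61 and 60 with GW3965. The groups overlapped almost fully, and the difference was -0.01 (95% interval -0.20 to 0.19, limma, adjusted p = 0.98), with a sign that changed under other scalings. Sox9 was at 20.2 to 24.6 FPKM against 20.5 to 23.4, a difference of 0.03 (95% interval -0.10 to 0.16). None of 12 tested chondrocyte transcription factors was called, with Runx2 at 0.08 and Sox5 at 0.19, and Barx1 (0.17) was called higher without 25HC3S replicate 1. Prg4 (lubricin, 0.04), Fmod (-0.06), Comp (-0.35) and Col10a1, the collagen of hypertrophic cartilage (-0.30), were not called either, though Comp was without that library (-0.19).

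Proteases and their inhibitors split, with 4 of 21 tested higher and 4 lower (9 and 6 without 25HC3S replicate 1, 3 and 2 with all 20 libraries in the fit). Mmp3, stromelysin-1, was at 11.5, 16.6, 10.2, 17.4 and 10.2 FPKM with 25HC3S and at 7.55, 7.89, 5.43, 5.82 and 6.02 with GW3965, a difference of 0.89 (SE 0.16, limma, adjusted p = 0.0054). Values with 25HC3S fell into a pair near 17 and a trio near 10 to 12, all above GW3965, while Vehicle lay at 10.8 to 24.5 FPKM. Mmp13, the collagenase that cleaves type II collagen, was at 375, 360, 375, 391 and 444 FPKM against 285, 300, 275, 291 and 353, a difference of 0.37 (SE 0.08, limma, adjusted p = 0.013) that missed the threshold with no filter on low values (0.053). Timp3, the inhibitor of aggrecanases and metalloproteinases, was at 334 to 409 FPKM against 529 to 556, a difference of -0.58 (SE 0.06, limma, adjusted p = 8.8e-05). Adamts1, an aggrecan-cleaving protease, was lower too (-0.47). Adamts5, the main aggrecanase of mouse cartilage, was at 19.8 FPKM in 25HC3S replicate 1 and 11.4 to 12.9 in the other 4, against 12.9 to 15 with GW3965. Its difference was -0.06 with that library and -0.19 without it, where it was called (limma, adjusted p = 0.03).

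Contractile genes were lower with 25HC3S in 8 of 13 tested, with 0 higher and a median of -0.42. They were 8 lower and 1 higher without 25HC3S replicate 1, with a median of -0.33. Acta2, smooth muscle actin, was at 289, 243, 280, 297 and 337 FPKM with 25HC3S and at 451, 423, 511, 493 and 592 with GW3965, a difference of -0.77 (SE 0.10, limma, adjusted p = 7.4e-04). Vehicle, at 306 to 398 FPKM, overlapped 25HC3S replicate 5 and lay below GW3965. Myl9, a myosin light chain, differed by -1.06 (-0.85 without 25HC3S replicate 1), Actg2 by -0.69 and Cnn1 by -0.58, while Tpm1 (-0.25) was not called. Among fibroblast genes Postn (-0.56) and Col3a1 (-0.39) were the 2 lower of 17, and Col1a1 (-0.20), Col1a2 (-0.0034) and Fn1 (-0.05) were not called. Leaving out 25HC3S replicate 1 gave 5 lower and 2 higher on that list, and Col1a1 (-0.21) was among them. Col3a1 lost its call with all 20 libraries in the fit (limma, adjusted p = 0.19). Igfbp5 (-0.62) and Igfbp3 (-0.59), binding proteins of insulin-like growth factors, were the 2 lower of 9 tested on their list (4 without 25HC3S replicate 1), and Igf1 was called without that library (-0.23) but not with it (-0.11).

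Genes of stress programmes were mostly not called with all 10 libraries. None of 20 tested chaperone and unfolded protein response genes was called, with a median of 0.02, and 1 was called in each direction without 25HC3S replicate 1. Hspa5, the main chaperone of the endoplasmic reticulum, had a difference of 0.03. Of 25 integrated stress response genes, 6 were lower and 0 higher (14 and 1 without that library, 2 and 0 with all 20 libraries in the fit), with a median of -0.24 that became -0.14 without 25HC3S replicate 1. The median deviation of 25HC3S replicate 1 from the rest of its group over this list was -0.59. Without GW3965 replicate 1 or replicate 2 the count was 3. Atf3, a stress-induced repressor, was at 3.34, 6.37, 6.54, 7.11 and 6.36 FPKM with 25HC3S and 10.4 to 12.9 with GW3965, a difference of -0.94 (SE 0.15, limma, adjusted p = 0.0024), or -0.78 without that library. Trib3 was not called with all 10 libraries (-0.37, limma, adjusted p = 0.15) and was called without it (-0.22, limma, adjusted p = 0.0067).

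Of 19 p53 targets, 3 were lower and 0 higher with all 10 libraries and 13 and 1 without 25HC3S replicate 1, with medians of -0.21 and -0.22. Among all tested genes the lower share was 4.64% with all 10 libraries and 8.84% without that one. Sesn1 differed by -0.52 (SE 0.10, limma, adjusted p = 0.0063). Cdkn1a, the cell cycle inhibitor p21, was at 48.1, 60.2, 61.7, 64.8 and 54.2 FPKM against 75, 76.4, 76, 75.2 and 68.3, a difference of -0.36 (SE 0.08, limma, adjusted p = 0.015) that missed the threshold after rescaling to equal totals (0.056). Among 21 NRF2 targets, 6 were lower and 1 higher (10 and 2 without that library). The higher call was lost whichever of the other 9 libraries was left out, and in the fit of all 20. The lower ones included Pgd (-0.46) and Me1 (-0.46), whose enzymes make NADPH, Tkt (-0.55) of the pentose phosphate pathway, and the metallothionein Mt2 (-0.80), which has a close relative in Mt1. Mt2 lost its call with all 20 libraries in the fit (limma, adjusted p = 0.058). Nqo1 (0.09), Gclc (0.003) and Hmox1 (-0.25, 95% interval -0.51 to 0.01) were not called. Lysosomal Ctsd (-0.70) and Ctsb (-0.60), also abundant in macrophages, were among 5 lower of 28 tested, with 1 higher. The list had 9 lower and 1 higher without 25HC3S replicate 1, and 4 and 0 with all 20 libraries in the fit.

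Further lists gave few calls each, at shares above the 8.25% of all tested genes called in either direction. All of these calls except that of Gdf10, named below, were lost when some single library was left out. Of 24 hypoxia and glycolysis genes, 2 were higher and 2 lower, with a median of 0.09. Leaving out 1 of the 9 libraries other than 25HC3S replicate 1 gave 0 to 2 of each. The counts without 25HC3S replicate 1 were 8 higher and 2 lower. Ldha, the lactate dehydrogenase of glycolysis, differed by 0.20 (limma, adjusted p = 0.035), a call lost when any library other than 25HC3S replicates 1 and 5 was left out (0.055 to 0.086), while Pgk1 (0.15), Pkm (-0.12) and Slc2a1, a glucose transporter (0.15), were not called. The Hedgehog pathway, which some oxysterols activate through Smo, had 1 higher gene of 8 tested (2 without 25HC3S replicate 1, 0 to 1 when another library was left out). Its target Ptch1 (0.12) and Smo (0.08) were not called, and Gli1 did not exceed 0.309 FPKM. Of 18 tested TGF-beta and BMP genes, 3 were lower and 0 higher (1 to 3 and 0 when 1 of those 9 libraries was left out, 6 and 1 without 25HC3S replicate 1). The lower ones held Gdf10, a BMP-related ligand (-0.52, limma, adjusted p = 0.0042). Tgfb1 (0.01) and Bmp4 (0.00035) were not called.

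Markers of further cell types were checked in the same way. Endothelial markers summed to 4.32 (25HC3S replicate 1) to 6.73 FPKM with 25HC3S and 5.02 to 7.39 with GW3965. Of these markers 1 of 10 was high enough to be tested, with no call. Erythroid and neutrophil markers summed to at most 0.994 FPKM in the 10 libraries, none was tested, and the globin genes Hba-a1, Hbb-bt and Hbb-bs were listed at 0. Skeletal muscle markers summed to 5.04 to 6.24 against 7.68 to 11.5 FPKM. Among them Acta1 was at 1.9 to 3.13 against 4.78 to 6.27 FPKM (difference -0.83, limma, adjusted p = 7.1e-04), while the myogenic factors Myod1 and Myog did not exceed 0.0908 and 0.274 FPKM. Acta1 and the far more abundant Acta2 (-0.77) are both actin genes. How fragments that match more than 1 gene were counted is not given. Adipocyte-type genes summed to 93.6 to 107 against 129 to 157 FPKM, with 3 of 10 tested lower (4 without 25HC3S replicate 1, 1 with all 20 libraries in the fit), among them Adipoq (adiponectin, -0.74, limma, adjusted p = 0.0088). Lpl, given above on the LXR list, was another of the 3 and weighs more in the sum. Its means were 42 FPKM with 25HC3S and 67.8 with GW3965, against 6.45 and 11.4 for Adipoq. Osteoblast markers gave 0 calls of 8 tested, and 1 in each direction without 25HC3S replicate 1. The part of these cells in the differences above was not tested. Gapdh, a common reference gene with many pseudogenes, was at 26.4 FPKM in 25HC3S replicate 4 and 1.46 to 7.98 in the other 4, against 1.8 to 2.47 with GW3965, and its level here is uncertain.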

How the data were processed

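Transcriptome libraries of mouse articular chondrocytes were compared between 25HC3S and GW3965, 5 libraries each. The authors deposited FPKM per gene for 54532 genes. CASAVA 1.8 and HISAT2 2.0.5 are named in the submitters' processing notes. Which program counted fragments, on which build and with what strand setting is not given in the sources used here, so coordinates are those of the deposited table. Values were whole multiples of 1 fragment per library, within 0.02 for 100% of values, which gave the depth. PCR fragments without molecular identifiers are not independent molecules.

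Tests were run on log2(FPKM + 1) in R 4.3.3 with limma 3.58.1, fitting a mean per group over the 10 libraries, a trend in the prior variance, two-sided p and Benjamini-Hochberg adjustment. The steps were tested on simulated data in which all libraries had the same spread. That test did not cover a deviant library such as 25HC3S replicate 1. Members and gene lists were chosen with earlier results of these data known. Named genes were the 10 with the largest called, non-overlapping difference in each direction at a mean of at least 5 FPKM in the higher group (without gene models named Gm or Rik), up to 3 called genes with the largest difference per list, and a panel of genes given whether or not they passed. Other genes are named as list members. A few genes stay in the fit and the list counts but are not reported here. Alternatives were other scalings, filters, pseudocount, sample sets, array weights, a replicate block and leaving out each library. The block without 25HC3S replicate 1 was added after the data were seen. Promoters came from RefSeq (GRCm38.p6). The labels do not say if replicate numbers pair the libraries.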

Additional observations from a re-analysis of the deposited data

Results flagged for a closer look

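In each group of 5 libraries, every named gene given here was checked for a highest or lowest library whose gap to the nearest other library was more than 0.71 of the group's whole range, a limit that chance passes in about 5% of groups. Of 206 groups, 26 passed it, and 22 of these were 25HC3S replicate 1, the library with few genes at 1 fragment.

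25HC3S replicate 1 was the highest of its group at Acly (31.3 FPKM, others up to 28.6), Adamts5 (19.8, others up to 12.9), Ank (45.8, others up to 35.2), Fasn (29.3, others up to 23.5) and Gli3 (8.03, others up to 5.75). It was also highest at Ifit1 (10.3, others up to 4.94), Lpl (62.9, others up to 39.4), Mki67 (36.3, others up to 19.6), Msr1 (8.36, others up to 6.57) and Ncapg2 (8.85, others up to 6.89). The same held at Scd1 (55.2, others up to 36.9), Slfn9 (18.7, others up to 12.2) and Tgfb2 (41, others up to 29.5). It was the lowest of its group at Atf3 (3.34 FPKM, others from 6.36), Ctsb (139, others from 200), Ctsd (270, others from 416), Fabp5 (5.52, others from 9.26) and Nr1h2 (14.5, others from 18). Further low values were at Nupr1 (24.2, others from 43.5), Srebf1 (18.4, others from 21.8), Trib3 (34.8, others from 57.4) and Vegfa (11.8, others from 21.6).

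The remaining 4 values that passed the limit were each in a different library. Gapdh was at 26.4 FPKM in 25HC3S replicate 4, with 1.46 to 7.98 in the rest of its group. GW3965 replicate 1 was high at Ifi27l2a (17.3, others up to 15.1). Rrm2 was at 31.9 FPKM in GW3965 replicate 4, above 29.4 to 30 in the rest. Cdkn1a was at 68.3 in GW3965 replicate 5, below 75 to 76.4 in the rest.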

How the results depend on the processing

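Of the 93 called named genes, 65 kept their direction and call under all 20 alternatives that tested them, and 28 lost the call under at least 1, with no change of direction among the 93. The fit of all 20 libraries lost 24 of these calls, no filter on low values 18, equal totals 7, and leaving out 1 library 0 to 13. Of 13 uncalled named genes, 4 were called under at least 1 alternative. Against 564 lower and 438 higher genes, the fit of all 20 libraries called 319 and 272, and array weights, which gave 25HC3S replicate 1 a weight of 0.0545, called 1137 and 1022. A filter of at least 5 FPKM called 188 higher genes among 7078 tested, with 5 higher by at least 2-fold, as with no filter (5). A pseudocount of 0.1 gave 86 lower and 44 higher by at least 2-fold. Leaving out 1 library gave 405 to 1074 lower and 312 to 975 higher genes, the upper ends without 25HC3S replicate 1, and 5 to 9 higher by at least 2-fold.

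The labels do not say that a replicate number marks a shared animal or day, so the replicate block is only an alternative. Same-number correlations of deviations from the group means were -0.107 to 0.0675. They held 25HC3S replicate 1 in its group's mean, so they cannot settle pairing. On the second component without that library, replicates 2, 4, 3 and 5 fell in that order in both groups (replicate 5 at -9.495 and -10.61). Pairing was not tested further. The replicate block called 373 lower and 289 higher genes, and 12 named genes lost their call. Without 25HC3S replicate 1, the replicate block called 917 lower and 791 higher, with 4 higher by at least 2-fold. That fit was chosen after the data were seen.

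Uncalled genes near 0 changed sign. Leaving out 1 library, Ch25h ranged from -0.01 (without 25HC3S replicate 4) to 0.26. Acan was 4.2e-05 with equal medians, 0.02 with equal totals, and ranged from -0.05 to 0.04 when 1 library was left out (above 0 without 25HC3S replicate 3 or 4, or GW3965 replicate 1 or 2). The cause was not tested. Depth limits genes at few fragments, and those under 1 FPKM were not tested.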
